A study of Homo sapiens with 6 samples.

Results

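The HOX gene clusters A to D were read as 4 windows of the hg19 genome, defined by position and picked with earlier results of these data known: 7:27130000-27250000 for HOXA, 17:46600000-46720000 for HOXB without HOXB13, 12:54330000-54450000 for HOXC and 2:176940000-177060000 for HOXD. The rule names 37 member genes, and every ATAC-seq peak that overlapped a window was taken. Peaks of 6 lists that shared 1 bp or more were joined, for a total of 74 HOX regions of 167726 in all on the autosomes and X: 22 in HOXA, 17 in HOXB, 22 in HOXC and 13 in HOXD. Regions are numbered within each window by rising coordinate. Only HOXA region 22 crosses a window edge. Open means covered by a called peak and closed means without one, so a closed stretch can hold accessibility too weak to be called.

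ATAC-seq, in which a transposase cuts and tags accessible DNA, was run on 22Rv1, an established line of human prostate cancer cells. All libraries carry the label FOXA1_dTAG and a time, with 2 at 0 h, 2 at 1 h and 2 at 24 h. FOXA1 is a pioneer transcription factor of luminal prostate cells. The dTAG system fuses a degron to a protein, which a bifunctional small molecule then brings to an E3 ligase. The 0 h libraries bear the same label, so the tag is shared by every group. The labels give neither the molecule, its dose nor whether the line is a single clone, and they do not say whether the replicates are separate cultures, so the spread between them may be technical. The FOXA1 protein itself, and the marker genes of the cell type, were not analysed here. The question addressed is how accessibility along the HOX clusters looked before and after the start of FOXA1 degradation.

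HOX genes encode homeodomain transcription factors that set position along the body axis. Within a cluster they lie in the order of the body regions they pattern, with low-numbered anterior genes at one end and high-numbered posterior genes at the other, and this order is kept in adult tissues as blocks of open and Polycomb-silenced chromatin. Posterior genes such as HOXA13 and HOXD13 act in the development of the urogenital tract, and HOXB13, which lies apart from the rest of HOXB, is a partner of the androgen receptor in prostate cells. In the RefSeq table on GRCh38.p14, which held all 37 members and was used only for their order, rising coordinates run from HOXA2 to HOXA13, from HOXB1 to HOXB9, from HOXC13 to HOXC4 and from HOXD13 to HOXD1. Peaks were not assigned to single genes, since an hg19 annotation was not used here.

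Promoter sequences, of 300 bases from 250 before to 50 after a gene's start, were taken from RefSeq on GRCh38.p14, and 20 of the 37 members had at least 1. Their coordinates are on that build and cannot be set beside the hg19 peaks. They are shown because FOXA1 is the factor that was targeted: the 3 promoters below are those, of 26 distinct member promoters, that hold the forkhead letters TGTTTNC on either strand, in capitals. HOXC4 and HOXC5 share the first start, at chr12:54016638-54016937 on the plus strand; the others are chr7:27150901-27151200 on the minus strand, 1 of 7 HOXA3 starts, and chr2:176116528-176116827 on the plus strand. Each is printed 5′ to 3′ in the direction of the gene.
HOXC4: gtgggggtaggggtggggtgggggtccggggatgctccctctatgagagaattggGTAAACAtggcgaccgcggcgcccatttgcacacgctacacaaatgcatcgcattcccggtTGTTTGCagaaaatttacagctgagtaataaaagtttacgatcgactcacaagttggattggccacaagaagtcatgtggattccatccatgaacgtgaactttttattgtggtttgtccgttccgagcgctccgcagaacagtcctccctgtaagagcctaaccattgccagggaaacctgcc
HOXA3: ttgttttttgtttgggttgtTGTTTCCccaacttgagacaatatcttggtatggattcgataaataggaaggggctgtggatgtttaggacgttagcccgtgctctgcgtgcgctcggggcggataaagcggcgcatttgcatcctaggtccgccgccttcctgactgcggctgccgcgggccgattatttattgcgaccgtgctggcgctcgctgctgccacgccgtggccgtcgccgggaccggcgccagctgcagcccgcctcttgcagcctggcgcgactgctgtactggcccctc
HOXD10: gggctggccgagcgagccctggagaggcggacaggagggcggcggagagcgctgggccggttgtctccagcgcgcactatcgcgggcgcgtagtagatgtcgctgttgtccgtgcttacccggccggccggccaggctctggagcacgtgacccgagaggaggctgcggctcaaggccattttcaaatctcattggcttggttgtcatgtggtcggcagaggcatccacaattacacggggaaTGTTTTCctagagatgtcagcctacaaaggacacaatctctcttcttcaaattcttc

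The share of member promoters with TGTTTNC was 11.5%, compared with 18.0% of 34943 promoters of the same length. The stricter TGTTTAC, which is contained in the first motif, was found only in the promoter that HOXC4 and HOXC5 share among the members (3.85%) and in 3.42% of all promoters. A match is a description of letters and not a binding site. The outermost genes of 2 clusters, which lie on the side of the longest peak-free ends within the windows, described below, have no such match in their windows of 300 bases. HOXD1 starts within chr2:176188418-176188717 on the plus strand and HOXB1 within chr17:48530962-48531261 on the minus strand.
HOXD1: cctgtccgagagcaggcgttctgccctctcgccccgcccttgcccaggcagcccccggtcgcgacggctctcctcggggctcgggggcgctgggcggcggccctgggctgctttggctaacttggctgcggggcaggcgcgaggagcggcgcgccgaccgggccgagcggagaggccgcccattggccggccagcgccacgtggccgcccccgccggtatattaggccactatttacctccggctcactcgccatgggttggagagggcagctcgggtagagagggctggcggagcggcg
HOXB1: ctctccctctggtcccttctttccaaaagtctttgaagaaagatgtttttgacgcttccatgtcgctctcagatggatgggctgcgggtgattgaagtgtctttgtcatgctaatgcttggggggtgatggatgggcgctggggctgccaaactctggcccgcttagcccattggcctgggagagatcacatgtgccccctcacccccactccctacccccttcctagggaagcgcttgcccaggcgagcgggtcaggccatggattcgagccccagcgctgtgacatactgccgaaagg

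HOXD1 had a GC content of 74.3% with 36 CpG dinucleotides, and HOXB1 one of 58.0% with 11. The median over the 26 member promoters was 58.0% with 22.5 CpG dinucleotides, and over all promoters 58.7% with 14. By these medians the member promoters were close to promoters in general in GC content and higher in CpG dinucleotides, which was not tested.

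The lists held between 101755 and 125396 peaks per library. Read counts were not used. A relative depth, recovered from the background that MACS2 used for each peak, was 10.5 and 8.29 tags per kb in the 0 h libraries, 8.14 and 8.63 in the 1 h libraries, and 7.35 and 7.06 in the 24 h libraries, so depth was lowest at 24 h. The median peak was 388 and 281 bp wide in the 0 h libraries, 416 and 370 bp in the 1 h libraries, and 341 and 327 bp in the 24 h libraries. Both can move the length covered and the number of peaks called.

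All 4 clusters were densely open. Averaged over the 6 libraries, peaks covered 12.2 ± 0.732 kb of the HOXA window (SD, n = 6), 11.2 ± 1.24 kb of HOXC, 8.51 ± 1.44 kb of HOXB and 7.01 ± 0.467 kb of HOXD. Among 25309 windows of 120 kb that tile the autosomes and X, with a median of 1.55 kb, these values stood at percentiles 99.9, 99.8, 99.1 and 97.5. HOXA was covered over a longer stretch than HOXC in 6 of 6 libraries, by 1.07 ± 0.704 kb, HOXC more than HOXB in 6 of 6 (HOXB minus HOXC, −2.66 ± 0.426 kb), and HOXB more than HOXD in 6 of 6, by 1.50 ± 1.04 kb. For each of the 6 pairs of clusters the exact two-sided sign-flip permutation p was 0.03125, the smallest that 6 libraries allow, and 0.03125 after adjustment over the 6 pairs. HOXA and HOXC came within 0.059 kb of each other in the closest library, so their order is narrow.

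Each window was covered over a longer stretch than the 120 kb on either side of it, in 6 of 6 libraries for all 8 flanks (exact two-sided sign-flip permutation p = 0.03125 each and after adjustment over 8). The lower and upper flanks held 1.96 ± 0.330 and 4.65 ± 0.575 kb for HOXA, 4.71 ± 0.452 and 2.92 ± 0.504 kb for HOXC, and 1.52 ± 0.143 and 0.959 ± 0.242 kb for HOXD (SD, n = 6). HOXB was the least set apart: its lower flank held 1.93 ± 0.364 kb, but its upper flank, on the side of HOXB13, held 6.34 ± 1.07 kb. The libraries measure the same cells, so these p-values describe the repeatability of the order and not its generality.

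**Figure D1:**
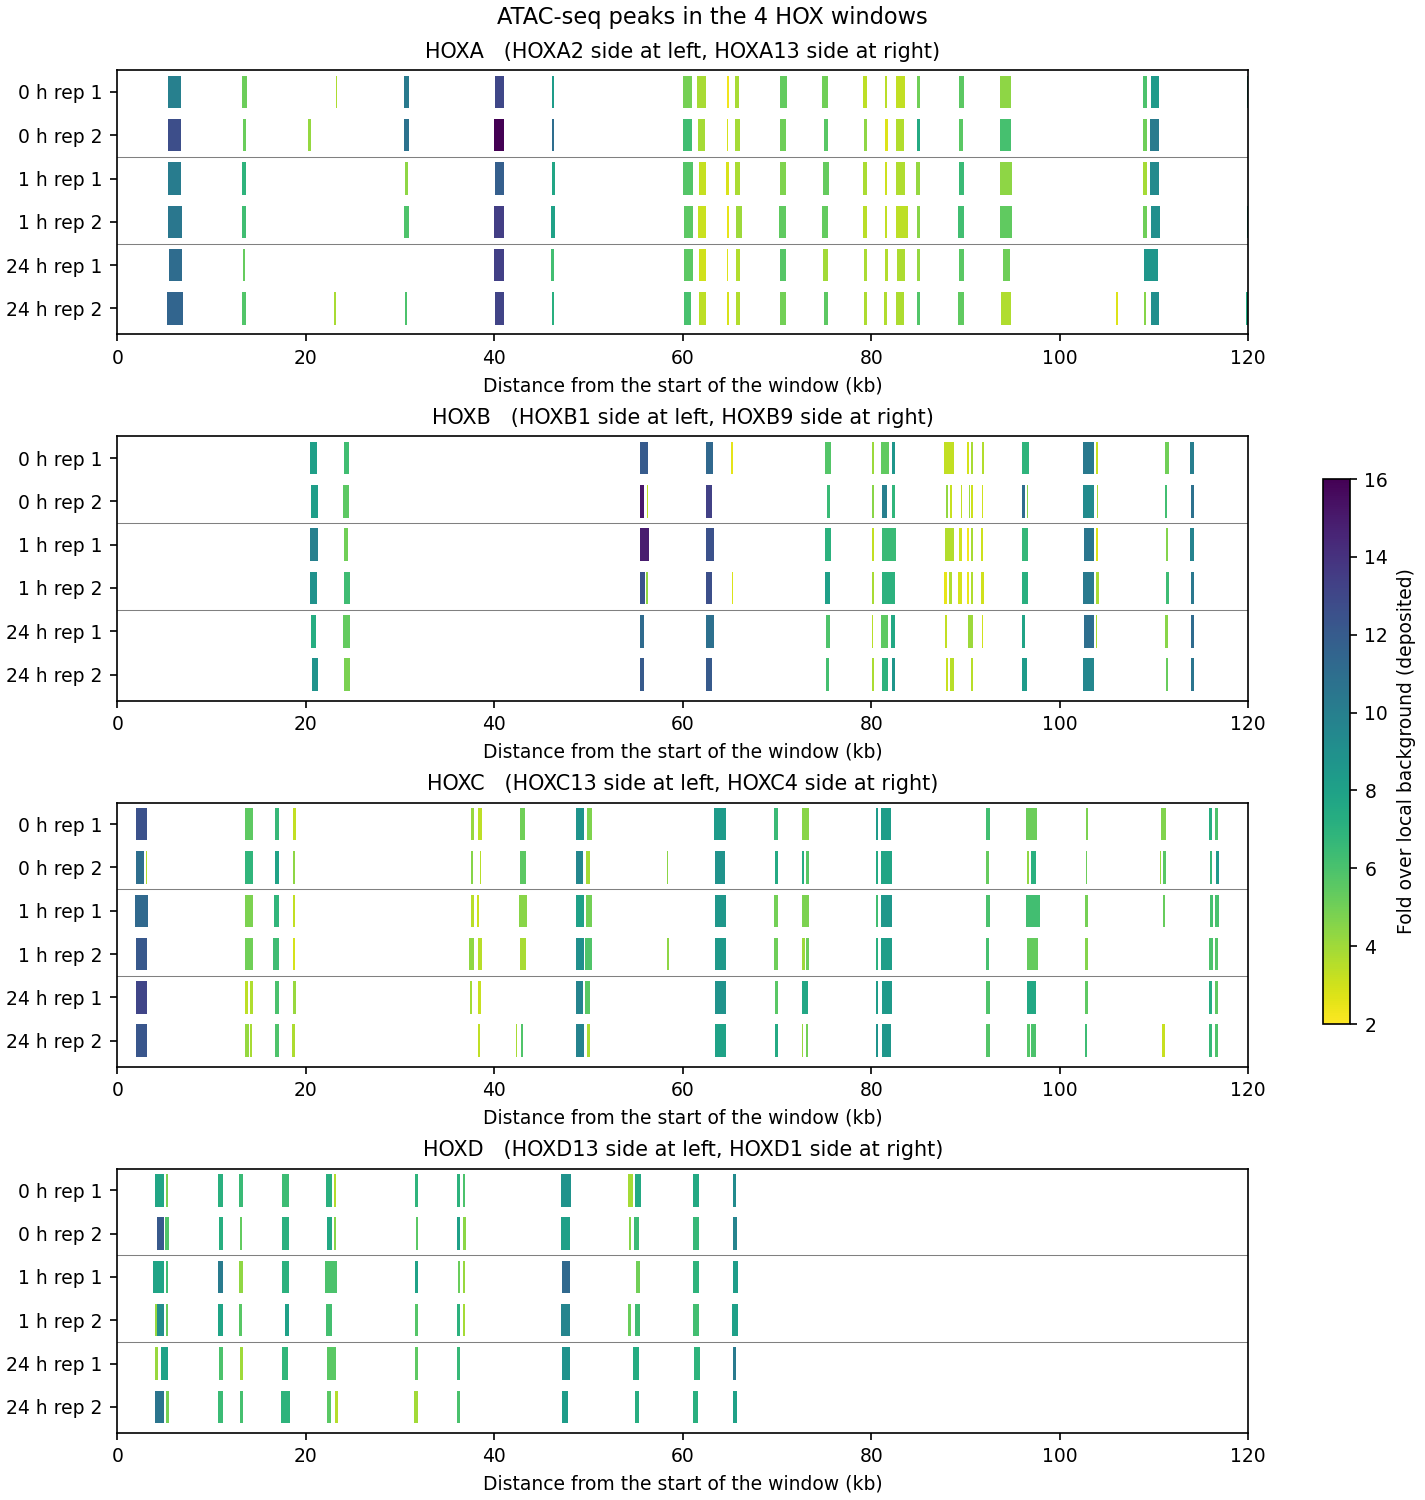
Peaks of each library (rows, with time label and replicate) along the 4 windows of 120 kb, with distance from the window's start in kb on the x axis and colour for the deposited fold over local background. The last 54.1 kb of HOXD and 30.8 kb within HOXB hold no peak in any library, and in HOXC the longest stretch without one is 18.3 kb.

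The open stretches had a different place in each cluster. In HOXD every region lay within the first 80 kb, on the side of HOXD13. From 177005873 on, the last 54.1 kb of the window held no peak in any of the 6 lists, and this closed stretch ran on beyond the window to 177073130, over 67.3 kb in all. It is the end of the cluster that carries HOXD1, and HOXD region 13, at 2:177005270-177005872, is the last open site before it. On the other side, before HOXD region 1, the lists held no peak over 76.2 kb, of which 3.79 kb lie within the window. The open part of HOXD thus stood between 2 long closed stretches, and the longest gap inside it was 10.1 kb.

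HOXB was closed on the side of HOXB1. Its first 20.4 kb held no peak, and with the closed sequence before the window this stretch came to 36.6 kb. Then came HOXB regions 1 and 2, followed by 30.8 kb without a peak in any library (17:46624665-46655458), the longest closed stretch within HOXB. The other 15 regions lay beyond it, with the highest coverage between 80 and 100 kb from the window's start (3.36 ± 0.832 kb of 20 kb), towards HOXB9.

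HOXA had open regions in each of its 6 stretches of 20 kb, but unevenly so. The densest part was the stretch from 60 to 80 kb, with 7 regions and 3.98 ± 0.322 kb of 20 kb covered, followed by that from 80 to 100 kb with 3.21 ± 0.267 kb. Between 20 and 40 kb, on the side of HOXA2, coverage was 0.481 ± 0.270 kb (SD, n = 6). This spread includes the times: 0.714 and 0.814 kb at 0 h, 0.340 and 0.491 kb at 1 h, and 0.057 and 0.472 kb at 24 h. Both 0 h values stood above all later ones, which was not tested. The longest stretch without a peak in any library was 13.6 kb (7:27176463-27190049), directly before the densest part. HOXC likewise had open regions in each stretch of 20 kb, from 0.542 ± 0.291 kb between 20 and 40 kb to 2.83 ± 0.316 kb between 80 and 100 kb. Its longest closed stretch was 18.3 kb (12:54348996-54367293), between HOXC regions 4 and 5.

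Closed stretches free of peaks in all lists, with 10 kb or more inside the window, numbered 2 in each of the 4 windows. At full length, past the window edges, a stretch of 14.4 kb in HOXA and that of 76.2 kb in HOXD also reached 10 kb. HOXD and HOXB stood apart by the length of these stretches, whereas their number depends on the cut at the window edges. The positions of the long stretches hardly moved with time. In HOXD the longest gap of a single library was 54.1 to 54.4 kb and in HOXB 30.8 to 31.0 kb. In HOXC it was 18.4 to 19.4 kb. HOXA was the exception. Its longest gap started at 27224847 and 27224817 in the 0 h libraries and at 27143674 and 27143626 in the 1 h libraries. In 24h replicate 2 it started at 27176318. The longest gap of 24h replicate 1, 26.3 kb, ran from 27143601 to 27169942, a stretch in which the other 5 libraries held HOXA region 5. The longest gaps of those libraries were at most 16.9 kb.

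The sites with the highest mean fold in each cluster were open at all times. The mean is taken over all times, so a site that weakened ranks lower by it. HOXA region 5 had folds of 10.3 and 10.7 in the 0 h libraries and no peak in 24h replicate 1. In HOXA the highest mean fold belonged to region 6 (7:27169943-27171037), with folds over local background of 13.0 and 16.2 in the 0 h libraries, 11.8 and 13.5 in the 1 h libraries, and 13.3 and 13.2 in the 24 h libraries. These values overlap between all 3 times. It was followed by region 1 with a mean fold of 11.0, region 21 with 9.13, region 22 with 8.59 and region 7 with 8.09. Region 21 (7:27238790-27240631) was also the widest of all HOX regions, at 1842 bp, and lies towards HOXA13.

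In HOXB, region 3 (17:46655459-46656416) directly follows the long closed stretch. Its folds were 12.1 and 15.1 in the 0 h libraries, 14.9 and 12.4 in the 1 h libraries, and 11.2 and 12.1 in the 24 h libraries. The 0 h values overlapped with those of both other times, and both 1 h values stood above both 24 h values. Region 4, the next one up, had a mean fold of 12.1, region 17 one of 10.5, region 14 one of 10.1 and region 1 one of 8.56. HOXB region 8 was the widest, at 1586 bp.

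HOXC region 1 (12:54331938-54333261), on the side of HOXC13, had folds of 12.6 and 11.0 in the 0 h libraries, 11.3 and 12.2 in the 1 h libraries, and 13.1 and 12.3 in the 24 h libraries. The 0 h values overlapped with those of both other times, and both 24 h values stood above both 1 h values. Its −log10 q was the highest of the HOX regions on average, between 50.8 and 95.1 in the 6 libraries. HOXC regions 9, 12, 16 and 15 followed with mean folds of 9.12, 8.50, 8.30 and 7.71, and region 18 was the widest at 1481 bp. In HOXD, region 1 (2:176943794-176945483), on the side of HOXD13, was both the strongest and the widest, at 1690 bp. It had folds of 7.72 and 12.2 in the 0 h libraries, 7.83 and 9.19 in the 1 h libraries, and 7.94 and 10.6 in the 24 h libraries, so its replicates differed more than its times. HOXD regions 9, 13, 2 and 4 had mean folds of 9.17, 8.94, 7.47 and 7.07.

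HOX regions were wide and repeatedly found, yet low in fold. Their median width was 615 bp, compared with 394 bp for all regions, and 59 of 74 (79.7%) had a peak in all 6 libraries, compared with 43.3% of all regions. The widths are those of joined regions, which can grow with the number of lists that hold a peak. They were not compared at an equal number of lists. Of those held by all libraries, the median of the mean folds was 6.28 in the HOX windows and 8.13 over all regions. On the within-list percentile of fold, read in lists shortened to 101755 peaks each, the medians were 42.0 and 61.2. By cluster the median percentile was 26.1 in HOXA, 41.3 in HOXC, 50.1 in HOXD and 60.8 in HOXB. A percentile of at least 90 was reached by 2 HOX regions, HOXA region 6 (92.9) and HOXB region 3 (90.5).

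**Figure D2:**
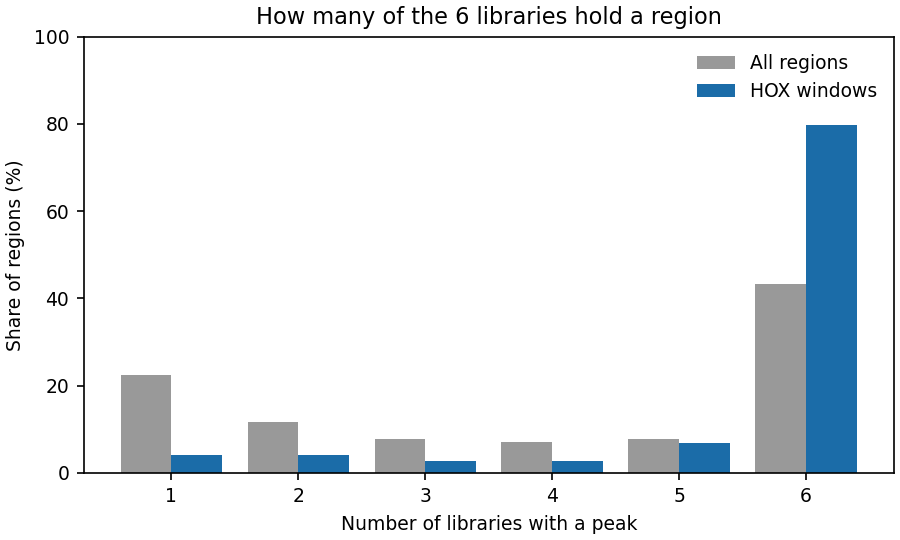
Share of regions in percent (y axis) by the number of libraries that hold a peak there (x axis), for all 167726 regions (grey) and the 74 HOX regions (blue). Of the HOX regions, 79.7% are held by all 6 libraries and 4.05% by a single one, compared with 43.3% and 22.5% of all regions.

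The local background, which is the denominator of the fold, was high at many HOX regions. MACS2 sets each peak against the tags around it, and the background behind a peak can be recovered from its fold and p-value. Taken as a multiple of each list's most frequent background, the median over regions held by all libraries was 3.70 for HOX regions and 1.79 for all regions. It was 6.51 in HOXA, 4.08 in HOXC, 2.76 in HOXB and 1.94 in HOXD. A background of at least 5 times the most frequent value was found at 14 of 22 HOXA regions, 5 of 17 HOXB regions, 4 of 22 HOXC regions and at none of 13 HOXD regions, where the highest value was 2.69. The order of the clusters by background was not the reverse of that by percentile: HOXD had the lowest background and a median percentile below that of HOXB.

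The extreme was the densest part of HOXA. Region 8 (7:27190050-27191099) had a background of 11.0 times the most frequent value, region 9 of 13.0, region 10 of 12.7 and region 11 of 10.8. Region 9 had folds of 3.81 and 3.88 in the 0 h libraries, 3.24 and 3.09 in the 1 h libraries, and 3.00 and 3.39 in the 24 h libraries, which put it at a mean percentile of 2.40, near the bottom of every list. The pileup at its summit was nonetheless 78 and 49 tags in the 0 h libraries, 67 and 57 in the 1 h libraries, and 45 and 44 in the 24 h libraries, and its −log10 q was at least 8.40 in each library. For comparison, HOXA region 7, with a background of 1.03 times the most frequent value, had folds of 8.31 and 11.1 from pileups of 22 and 21 tags at 0 h. A fold therefore ranks these sites by contrast with their surroundings and not by height. DNA copy number was not analysed here, and its part in the background and pileup values of HOXA was not tested.

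**Figure D3:**
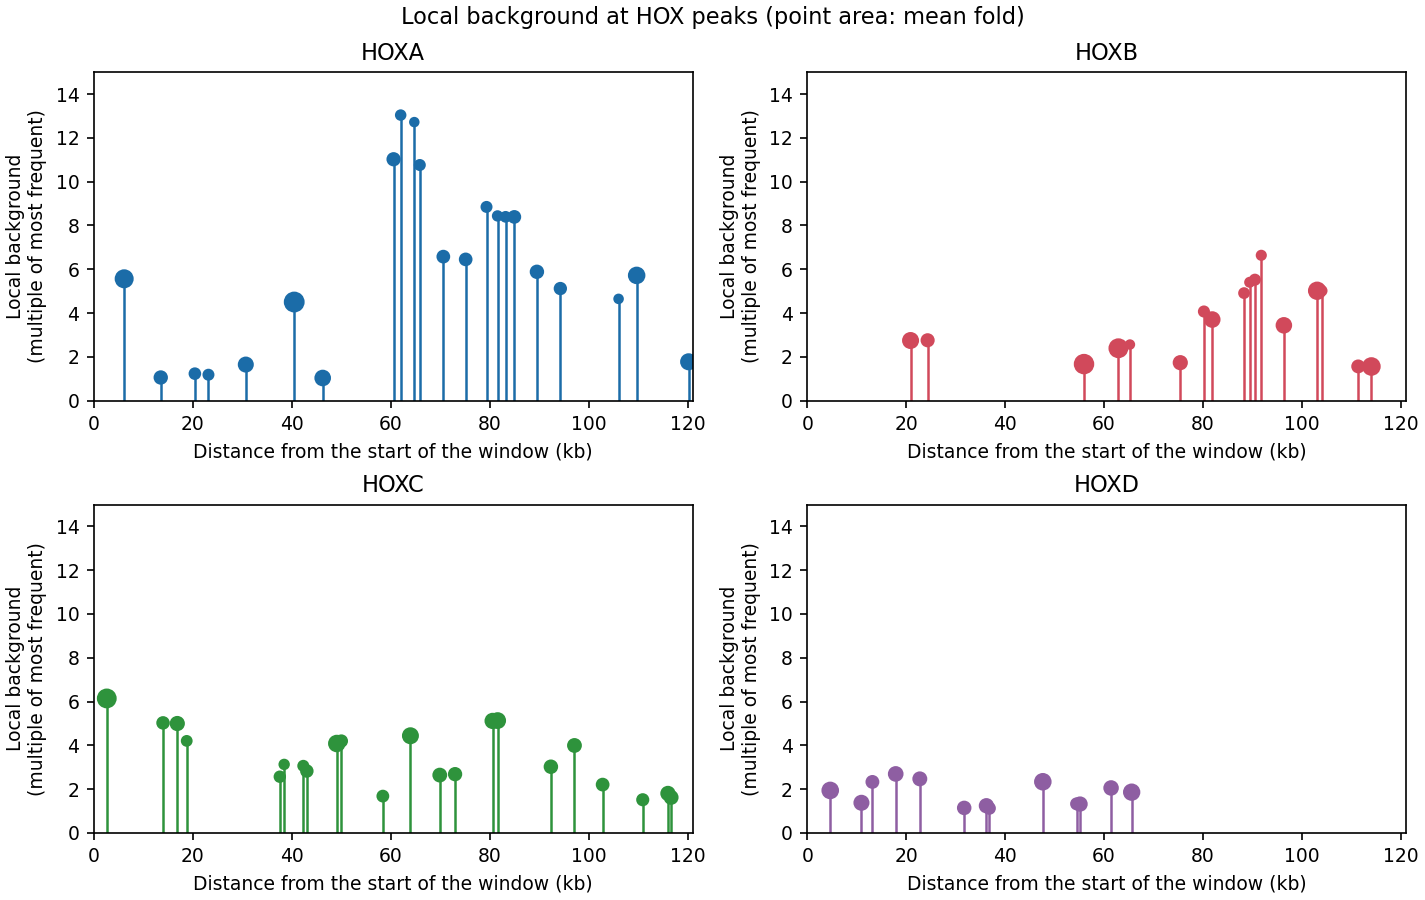
Mean local background of each HOX region over the libraries that hold it, as a multiple of the list's most frequent background (y axis), against distance from the window's start in kb (x axis), with point area for mean fold. HOXA regions 8 to 11 stand at 10.8 to 13.0, whereas all HOXD regions stand at or below 2.69.

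Over time, the number of HOX peaks moved with the length of the lists. The windows held 74 and 82 peaks in the 0 h libraries, 70 and 76 in the 1 h libraries, and 64 and 73 in the 24 h libraries, which was between 62.6 and 65.4 of every 100000 peaks in each list. The length covered in all 4 windows was 42.3 and 36.1 kb in the 0 h libraries, 42.7 and 41.8 kb in the 1 h libraries, and 35.1 and 35.5 kb in the 24 h libraries. Both 24 h libraries were thus below the other 4. Per Mb of all length covered in the same list, however, the windows took 724 and 737 bp in the 0 h libraries, 741 and 748 bp in the 1 h libraries, and 763 and 730 bp in the 24 h libraries. The 24 h range overlaps those of both other times, whereas both 1 h values stood above both 0 h values, which was not tested.

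By cluster, mean coverage went from 12.4 ± 0.747 kb at 0 h to 11.5 ± 0.492 kb at 24 h in HOXA (SD, n = 2), from 8.46 ± 1.90 to 7.27 ± 0.124 kb in HOXB, from 11.2 ± 1.11 to 9.91 ± 0.260 kb in HOXC and from 7.19 ± 0.670 to 6.59 ± 0.147 kb in HOXD. The libraries of the 2 times did not overlap in HOXA, HOXC and HOXD and did in HOXB. The exact two-sided permutation p was 0.333 in the former, which is the lowest possible with 2 libraries a side, and 1 in HOXB (adjusted over the 12 tests of cluster and comparison, 0.5 and 1). Scaled to the total covered length of each list, the differences at 24 h changed sign in HOXA (0.631 kb), HOXC (0.0899 kb) and HOXD (0.283 kb). At 1 h the differences from 0 h were 0.413 kb in HOXA, 1.35 kb in HOXB, 1.26 kb in HOXC and 0.0505 kb in HOXD, with exact two-sided permutation p-values of 0.333 in HOXC and 0.667 to 1 in the others. Without 0h replicate 2 these differences were −0.116, 0.0065, 0.477 and −0.423 kb, and without 0h replicate 1 they were 0.942, 2.69, 2.04 and 0.524 kb.

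From 1 h to 24 h coverage was lower in both later libraries than in both earlier ones in every cluster, with differences of −1.296 kb in HOXA, −2.54 kb in HOXB, −2.52 kb in HOXC and −0.652 kb in HOXD (exact two-sided permutation p = 0.333, adjusted 0.5). After scaling, the sign turned in HOXA (0.947 kb) and HOXD (0.633 kb). The first 1 h library also had the widest median peak. With windows of 500 bp around the summits in place of the peaks, the differences of 1 h from 0 h turned to −0.528 kb in HOXA, −0.329 kb in HOXB, −0.959 kb in HOXC and −0.539 kb in HOXD.

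**Figure D4:**
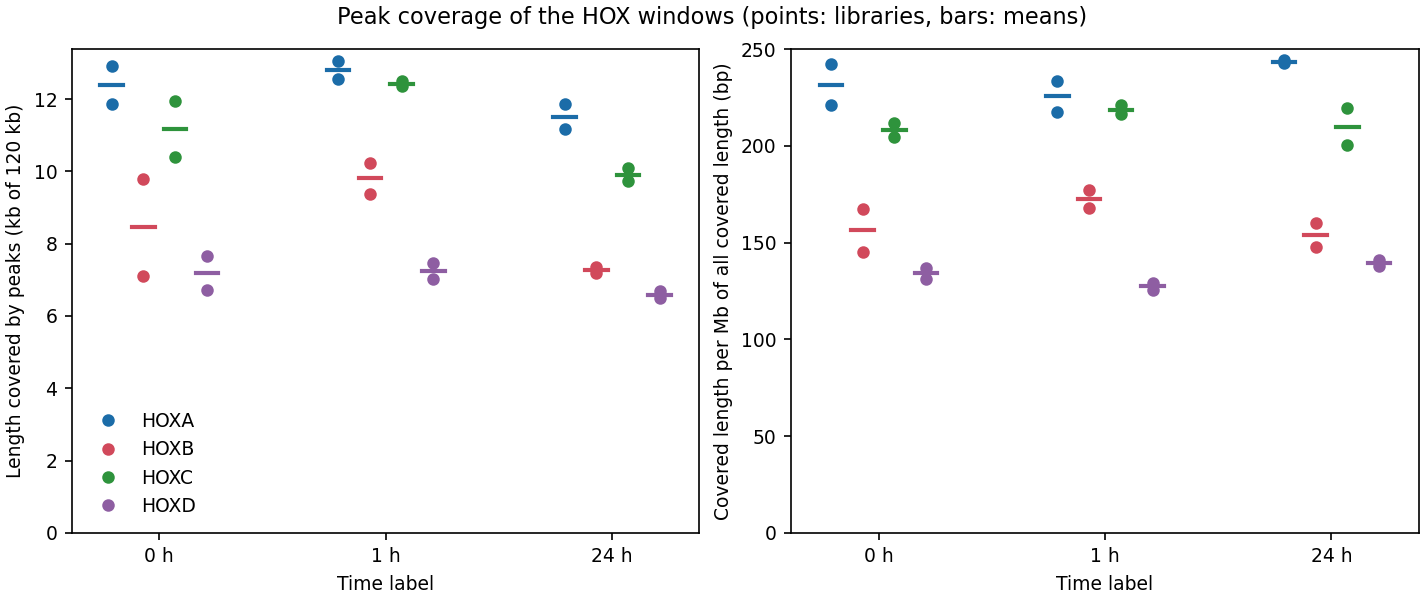
Length of each window covered by peaks (left, kb) and the same length per Mb of all covered length in that list (right, bp) by time label, with 1 point per library and a bar for the mean of 2. At 24 h the covered length is lowest in each cluster by its mean, whereas per Mb of covered length HOXA and HOXD are highest at 24 h by their means (244 and 139 bp).

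Few HOX regions came or went. Lost means a peak in each library of the earlier time and in no library of the later one, and gained is the reverse. At 1 h none of the 67 HOX regions found in each 0 h library was lost, with 7.48% lost over all regions, and none of the 66 held by both 1 h libraries was gained, with 3.93% over all regions. At 24 h, 2 of 67 (2.99%) were lost, with 13.1% over all regions, and 0 of 59 gained, with 6.54%. From 1 h to 24 h, 2 of 66 (3.03%) were lost, with 6.42% over all regions, and 0 of 59 gained, with 3.85%. Each share was thus below that of all regions, a comparison without a test.

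Strong regions were read apart, where strong means a −log10 q of at least 10. None of the 41 HOX regions strong in both 0 h libraries lacked a peak in both 1 h or both 24 h libraries, with 1.51% and 4.02% over all strong regions. Some no longer reached the limit: 8 of 41 (19.5%) were strong in both 0 h libraries and in neither 24 h library, with 16.3% over all regions, and 3 of 41 (7.32%) at 1 h, with 9.57%. These shares are near the background. From 1 h to 24 h, 0 of 41 lost their peak (0.0896% over all strong regions), and 8 of 41 (19.5%) were strong in both 1 h libraries and in neither 24 h library, with 7.03% over all regions, a larger share that was not tested. No HOX region went from no peak to strong in both libraries: 0 of 41 at 1 h (0.0338% over all), 0 of 28 at 24 h against 0 h (0.748%) and 0 of 28 against 1 h (0.151%). Strong HOX peaks numbered 52 and 44 in the 0 h libraries, 45 and 45 in the 1 h libraries, and 35 and 33 in the 24 h libraries. Of every 100000 strong peaks in the list they made up 80.6 and 71.9, 81.3 and 75.6, and 65.8 and 62.0, so that both 24 h libraries were below the other 4. In HOXA strong peaks numbered 16 to 17 at 0 h, 16 at 1 h and 9 to 10 at 24 h. Relative depth, by the measure given above, was lowest at 24 h as well, and its part in this count was not tested.

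The regions lost at 24 h were both in HOXD and both weak, which made 2 of 13 (15.4%) in that cluster, near the 13.1% over all regions. HOXD region 8 (2:176976634-176976968) had folds of 5.98 and 4.43 in the 0 h libraries, 4.17 and 3.87 at 1 h, and no peak in either 24 h library. Its −log10 q had been 8.31 and 3.80 at 0 h. HOXD region 10 (2:176994175-176994696) had folds of 3.86 and 4.55 at 0 h, 5.19 in a single 1 h library and no peak at 24 h. Both lie beside a region that kept its peak in every library, 242 bp from HOXD region 7 and 59 bp from HOXD region 11. With windows of 500 bp around summits, no HOX region was lost at 24 h. Such windows can join neighbours this close, so that count does not show whether a peak remained at the 2 sites. It has no share over all regions beside it. The regions lost from 1 h to 24 h were HOXD region 8 and HOXB region 10 (17:46689192-46689656), which had folds of 3.00 and 2.91 at 1 h and, at 0 h, a peak of 3.26 in a single library.

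The largest shift in rank among HOX regions was at HOXA region 5 (7:27160424-27160981), which lies in the thinly covered stretch on the side of HOXA2. Its folds were 10.3 and 10.7 at 0 h, 4.40 and 5.92 at 1 h, and 5.99 in 24h replicate 2, with no peak in 24h replicate 1. The values at 0 h lay above all later ones. The −log10 q went from 30.4 and 23.3 to 5.07 and 8.53 at 1 h and 7.15 in the only 24 h library with a peak, and the pileup from 43 and 30 tags to 13 and 16, and then 12. Within lists of one length its percentile was 79.0 and 75.2 at 0 h and 17.4 and 40.8 at 1 h, a shift of −48.0 points and the lowest of 61 HOX regions kept in these 4 lists. The lowest shift over all kept regions was −91.0. Around it, HOXA region 6, the next one up, stayed at percentiles of 89.9 to 96.3. The next ones down, HOXA region 4 and HOXA region 3, had no peak at 1 h. HOXA region 4 had folds of 3.71 in 0h replicate 1 and 3.81 in 24h replicate 2. HOXA region 3 had a peak only in 0h replicate 2, with a fold of 4.22. HOXA region 2, further down, had percentiles of 25.2 and 17.9 at 0 h but 56.0 and 43.5 at 1 h.

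A kept region counted as shifted when the libraries of one time all stood above those of the other and the mean percentiles differed by at least 10 points. At 1 h, 6 of 61 HOX regions were lower (9.84%, with 12.2% over all kept regions) and 10 higher (16.4%, with 16.2%). At 24 h, 3 of 56 were lower (5.36%, with 14.1%) and 3 higher (5.36%, with 18.4%). From 1 h to 24 h, 10 of 57 were lower (17.5%, with 13.3%) and 5 higher (8.77%, with 12.8%). Counts at 1 h were near the background and those at 24 h below it. The median shift of HOX regions was 1.19 points at 1 h and 0.769 at 24 h, compared with 1.36 and 1.3 over all kept regions, and from 1 h to 24 h −0.026 compared with 0.00835. Ranked by −log10 p in place of fold, the HOX medians were 2.62, −1.08 and −3.80 points and those of all kept regions 1.14, 0.349 and −0.495, so the sign at 24 h against 0 h depends on the ranking. By that ranking 14 of 57 HOX regions were lower from 1 h to 24 h (24.6%, with 12.8% over all kept regions), a difference that was not tested.

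Behind HOXA region 5, the regions with the lowest shifts at 1 h were HOXA region 17 (−22.6 points), HOXC region 13 (−17.7), HOXB region 8 (−16.5), HOXC region 2 (−12.5) and HOXC region 8 (−11.9). HOXC region 13 had folds of 6.52 and 7.48 at 0 h and 5.01 and 5.11 at 1 h, but 5.62 and 7.51 at 24 h, so one 24 h value stood between the others and the other above them. HOXB region 8 had 8.63 and 10.0, then 6.50 and 7.08, then 7.62 and 8.62, so its 24 h values stood between the others.

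HOXC region 2 (12:54343519-54344423), towards HOXC13, was lower at each step. Its folds were 5.47 and 6.83 at 0 h, 4.77 and 5.04 in the 1 h libraries, and 3.69 and 4.20 in the 24 h libraries, with no overlap between the times. The percentile was 37.0 ± 8.23 at 0 h and 24.5 ± 1.79 after 1 h (SD, n = 2). After 24 h it was 6.85 ± 1.63. Its highest-fold peak was 871 and 856 bp wide in the 0 h libraries and 240 and 406 bp in the 24 h libraries. These widths leave out further peaks of the region. Peaks covered 2.80 and 2.56 kb of the first 20 kb of HOXC, where it lies, at 0 h. At 24 h they covered 2.53 and 2.54 kb, more than the highest-fold peaks of the 4 regions there. HOXC region 2 thus held a further peak in both 24 h libraries, and its covered length was not tested. HOXA region 7 (7:27176031-27176462) had percentiles of 70.7 ± 9.71, 63.4 ± 0.683 and 49.5 ± 6.14, a shift of −21.2 points at 24 h. HOXD region 5 (2:176962092-176963400), towards HOXD13, had 51.1 ± 1.43, 43.9 ± 1.63 and 33.8 ± 2.41, a shift of −17.3 points, and its folds of 7.13 and 7.62 in the 0 h libraries, 5.96 and 6.17 in the 1 h libraries, and 5.60 and 5.57 in the 24 h libraries did not overlap between the times.

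**Figure D5:**
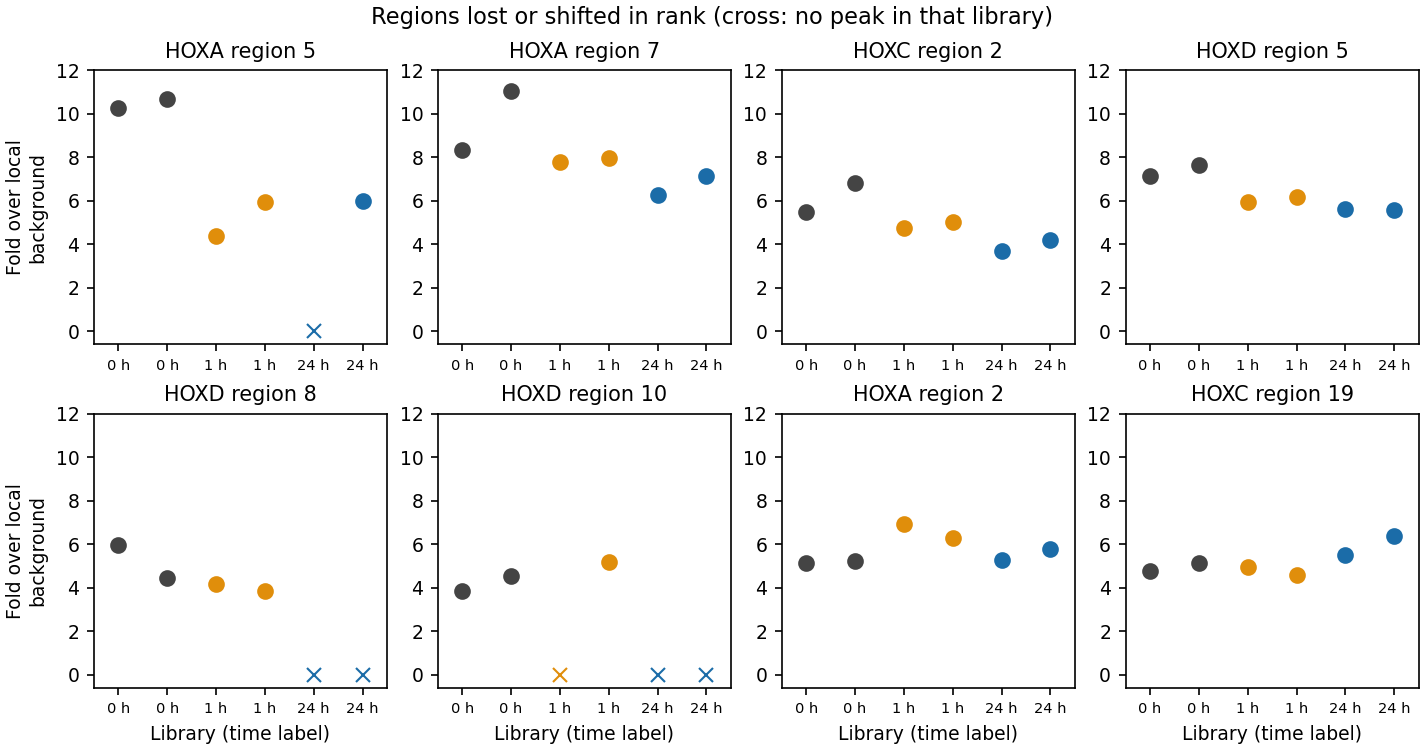
Fold over local background (y axis) of 8 HOX regions in each of the 6 libraries (x axis, time label), with a cross where the library holds no peak. In HOXA region 5 both 0 h libraries, at 10.3 and 10.7, lie above every later value, HOXD regions 8 and 10 have no peak at 24 h, and HOXC region 19 is highest at 24 h.

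The largest upward shift at 1 h was that of HOXA region 2 (7:27143217-27143801), with folds of 5.16 and 5.22 in the 0 h libraries, 6.95 and 6.27 in the 1 h libraries, and 5.30 and 5.78 in the 24 h libraries. It stood 28.2 points higher at 1 h than at 0 h and 12.7 points higher at 24 h. HOXB region 6 stood 23.4 points higher at 1 h, HOXD region 2 22.9, HOXC region 10 22.7, HOXD region 9 19.9 and HOXA region 18 19.5. HOXD region 2, towards HOXD13, had folds of 7.12 and 7.20 in the 0 h libraries, 10.2 and 7.83 in the 1 h libraries, and 5.99 and 6.47 in the 24 h libraries, and its shift of −27.8 points from 1 h to 24 h was the lowest of all HOX regions in that comparison. Comparisons that share a time use the same 2 libraries, so a region high in these stands out in both. Next came HOXB region 6 (−18.0), HOXC region 2 (−17.6), HOXA region 2 (−15.5), HOXA region 18 (−14.2) and HOXD region 9 (−14.2).

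Higher at 24 h than at 0 h were HOXC region 19 (12:54432643-54433025), by 23.8 points, HOXA region 2 and HOXC region 15, by 10.2 points. HOXC region 19, towards HOXC4, had folds of 4.77 and 5.13 in the 0 h libraries, 4.95 and 4.60 in the 1 h libraries, and 5.49 and 6.38 in the 24 h libraries, so both 24 h libraries stood above the other 4. From 1 h to 24 h, HOXC region 19 stood 19.2 points higher, HOXD region 11 17.4, HOXC region 13 16.5, HOXC region 15 15.3 and HOXB region 8 10.6. In HOXB no region was shifted at 24 h against 0 h in either direction, and the shifts of its 13 kept regions lay between −5.95 and 5.94 points. At 24 h the upper flank of HOXB, towards HOXB13, had lost 3 of 14 regions with a peak in each 0 h library, and the HOXB window 0 of 15. Over all regions 13.1% were lost. The upper flank of HOXA lost 1 of 9, and the remaining flanks lost 0. These differences were not tested.

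With 2 libraries per time point these counts carry no test. A call of lost or shifted for a single region rests on those 4 libraries alone.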

How the data were processed

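ATAC-seq peak lists of 6 libraries of 22Rv1 cells (2 each at 0 h, 1 h and 24 h) were used, 1 list per library. The submitters' processing notes name Bowtie2, MACS2, fastp and FastQC, and the build hg19; versions, cut-site shifting and duplicate removal are not given in the sources used here. Deposited values are the fold (a ratio of summit pileup to local background), the −log10 p, the −log10 q and a score (the −log10 q times 10, without decimals). Deposited peaks reach down to a q of 0.05.

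Lists were read in Python 3.11.15 with pandas 2.3.3, numpy 2.4.6 and scipy 1.17.1. Folds were used to describe peaks, to rank them in lists shortened to 101755 peaks by −log10 p, and to recover pileup and background. Pileup and background were recovered from fold and −log10 p (pseudocount 1, Poisson), and matched within 0.001 for 100% of peaks in each list. Coverage was compared by exact permutation, and presence calls were checked on simulated lists. The windows, which are defined by position, the gene lists and the tests were chosen with earlier results of these data known. Named regions are, per window, the 5 with the highest mean fold and the widest, all lost or gained, and up to 6 shifted per direction and comparison. Alternatives were a limit of 5 on −log10 q, strong against absent peaks, lists of one length, 500 bp summit windows, 50% overlap, windows widened by 20 kb, other shift sizes, ranks by −log10 p, each library left out and a replicate block. Scaling to covered length was added after seeing the data.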

Additional observations from a re-analysis of the deposited data

How the results depend on the processing

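The calls rest on few regions, and the part of depth in them was not tested. Losses at 1 h were 2 with 500 bp summit windows and 1 with 50% overlap, and gains at 1 h were 1 with lists of one length and 1 with 50% overlap. Losses at 24 h against 0 h were 4 with a −log10 q of at least 5, 1 with lists of one length, 0 with 500 bp summit windows, 4 with 50% overlap and 0 for strong peaks against none. From 1 h to 24 h, losses were 1 with lists of one length, 1 with 500 bp summit windows, 7 with 50% overlap and 0 for strong peaks, and gains were 1 with 500 bp summit windows. With a library left out, losses were 1 to 1, 3 to 5 and 2 to 5 and gains 0 to 1, 0 to 2 and 0 to 3, in the order 1 h and 24 h against 0 h, then 24 h against 1 h. Fewer libraries then had to meet the condition. Apart from strong peaks, these alternative counts have no share over all regions beside them. Whether they lie below that share was not tested.

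Shifted regions numbered 16, 6 and 15 in these comparisons. With 20 points they were 6, 3 and 1, and with 5 points at 24 h against 0 h 15. Without single libraries they were 18 to 29, 11 to 24 and 16 to 21. These alternative counts have no share over all kept regions beside them. Ranked by −log10 p, 5 were lower and 13 higher at 1 h, 6 lower and 3 higher at 24 h, and 14 lower and 3 higher from 1 h to 24 h. The shares over all kept regions were 11.5% and 15.6%, 13.6% and 16.8%, and 12.8% and 11.5%.

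Coverage differences turned sign with summit windows at 1 h in HOXA (−0.528 kb), HOXB (−0.329), HOXC (−0.959) and HOXD (−0.539), and from 1 h to 24 h in HOXA (0.0015) and HOXC (0.142). Scaled to covered length they turned at 1 h in HOXA (−0.317) and HOXD (−0.350), at 24 h against 0 h in HOXA (0.631), HOXC (0.0899) and HOXD (0.283), and from 1 h to 24 h in HOXA (0.947) and HOXD (0.633). With a library left out they ranged at 1 h from −0.116 to 0.942 kb in HOXA, from 0.0065 to 2.69 kb in HOXB, from 0.477 to 2.04 kb in HOXC and from −0.423 to 0.524 kb in HOXD, and from −2.53 to 0.155 kb in HOXB at 24 h against 0 h. The cause was not tested.

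The replicate block gave the same lost (0, 2 and 2) and gained counts by construction and the same coverage differences (HOXA at 1 h, 0.413 kb), with a smallest exact p of 0.5. Deviations of same-numbered libraries correlated by 0.0143 to 0.0432 over regions held by all libraries, so the numbers were not taken as pairs.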
